A study of Mus musculus with 6 samples.

Results

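The Schlafen genes form a family of growth-restraining and antiviral proteins, and 7 of them (Slfn1, Slfn2, Slfn3, Slfn4, Slfn5, Slfn8 and Slfn9) were examined here among the 54532 genes of the count table. They were chosen by name, as the genes in that table carrying these symbols, and all 7 were found. RNA was measured in RAW264.7, a mouse macrophage line with the genotype WT, either grown alone (3 libraries, A to C) or cocultured for 48 h with TTJ cells (3 libraries, A to C). TTJ cells lack Tsc2, an inhibitor of mTORC1 signalling, and came from an angiomyolipoma of mice that model tuberous sclerosis complex. Cells of both groups were kept in DMEM with 10% FBS and sorted by FACS before messenger RNA was captured with poly-T beads. The comparison addressed how Tsc2-null cells alter the state of macrophages. The labels do not say whether the replicates were separate cultures, so p-values reflect the spread among 3 libraries a group and possibly technical variation alone.

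The family takes its name from the German word for sleep, because the founding genes were found in developing T cells and slowed their growth. Its mouse members fall into a short class (Slfn1 and Slfn2), an intermediate class (Slfn3 and Slfn4) and a long class (Slfn5, Slfn8 and Slfn9), the last of which carries an added helicase-like part. Schlafen proteins share a core related to nucleases and several act on tRNA or ribosomal RNA. Many of the genes are raised by type I interferon, and Slfn4 is best known from myeloid cells such as macrophages.

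All 7 genes lie in 1 cluster of 264 kb on chromosome 11 (bases 82951349 to 83215154 of mm10). In map order they run Slfn5, Slfn9, Slfn8, Slfn2, Slfn1, Slfn4 and Slfn3, with Slfn8 and Slfn9 on the minus strand and the others on the plus strand. Slfn4 (bases 83175186 to 83190216) and Slfn3 (83191330 to 83215154) are next to each other, with 1113 bases between the end of Slfn4 and the start of Slfn3. Their coding sequences were identical at 95.3% of 1524 aligned bases, and those of Slfn8 and Slfn9 at 92.7% of 2733. Every other pair had 63.2% to 77.6% identity over the bases that aligned. Coding lengths followed the classes, at 1014 bases for Slfn1, 1137 for Slfn2, 1554 for Slfn3, 1809 for Slfn4, 2655 for Slfn5 and 2733 for both Slfn8 and Slfn9.

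The stretches just upstream of the start sites also set the long class apart from the rest, and they are printed because the 2 sets hold different exact matches. Sequences are from RefSeq (GRCm38.p6, the assembly of mm10), where all 7 genes had an entry, and are written 5′ to 3′ on the gene's own strand. Capitals mark the match and positions count back from the RefSeq start site. The interferon-stimulated response element, bound by STAT and IRF factors, was searched on both strands by exact matches to its core, GAAA, any 2 bases and GAAA again. It stood upstream of the 3 long genes, at -155 in Slfn5, -48 in Slfn8 (-136 from its other RefSeq start) and -45 in Slfn9, and is held by 3.44% of 32851 promoter windows of 300 bases.
Slfn5, chr11:82951931-82951972, plus strand: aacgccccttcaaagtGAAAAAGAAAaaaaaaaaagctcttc
Slfn8, chr11:83020833-83020874, minus strand: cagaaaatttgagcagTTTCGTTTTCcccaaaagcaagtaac
Slfn9, chr11:82991850-82991891, minus strand: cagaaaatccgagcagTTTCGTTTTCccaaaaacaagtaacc
The Slfn5 match sits in a run of A, and the RefSeq start of Slfn5 lies inside the gene as the count table draws it, because that annotation has an earlier transcript start.

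The short and intermediate genes held instead the letters ACTTCCTGG, at -74 in Slfn1, -55 in Slfn2, -42 in Slfn3 and -73 in Slfn4. This string was noticed in the sequences themselves and then counted, and 0.843% of the 32851 windows hold it on either strand. It includes TTCC, the reverse complement of the GGAA found at the core of sites for ETS factors such as PU.1.
Slfn1, chr11:83116730-83116770, plus strand: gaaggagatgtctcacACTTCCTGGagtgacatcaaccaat
Slfn2, chr11:83065041-83065081, plus strand: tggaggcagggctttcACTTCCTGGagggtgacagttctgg
Slfn3, chr11:83191272-83191312, plus strand: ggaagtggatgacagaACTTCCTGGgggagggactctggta
Slfn4, chr11:83175097-83175137, plus strand: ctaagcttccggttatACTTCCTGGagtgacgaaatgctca
A GAS element, TTCNNNGAA, was in 0 of the 7 promoters and in 8.30% of all windows, and the longer ETS core GAGGAA was in Slfn9 alone against 28.3% of all windows. These matches describe letters in a window and do not show that a factor binds there. Inexact forms of the elements were not searched. The members are related in sequence, so their windows are not independent and the shares over all windows do not measure enrichment.

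The libraries held 14329487 to 17358280 counts each, and mitochondrial genes took 1.55% to 1.75% of counts in lone cells and 1.34% to 1.41% in coculture. The summed level of 10 macrophage markers was 12528 to 12619 CPM (counts scaled to the size of the library) alone and 13223 to 13588 CPM in coculture, most of it Lyz2. Of the 10, 5 were called higher and 2 lower, against 21.7% and 15.2% of all tested genes. Log2 fold changes were 1.17 for Fcgr1, 0.89 for Itgam, 0.25 for Adgre1 and -0.23 for Spi1. The other lower gene, Cd68 (-0.10, edgeR adjusted p = 0.0470), lost its call without lone library A, lone library C, cocultured library B or cocultured library C, at edgeR adjusted p of 0.178, 0.0614, 0.139 and 0.155. The cocultured libraries also carried transcripts that lone cells lacked. The summed level of 15 renal epithelial markers ran from 0 to 0.115 CPM alone and from 361 to 416 CPM in coculture. In lone cells 12 of the 15 were at 0 counts, and the defining markers Epcam and Lhx1 were at 0 in all 6 libraries. Of 14 mesenchymal markers the sum went from between 1.79 and 1.93 to between 59.7 and 64.3 CPM. Most of the cocultured sum was Col5a1, Timp3 and Cav1, at means of 25.6, 17.9 and 15.2 CPM. Of the 14, 9 were at 0 counts in lone cells, and Col3a1, Pdgfra and Thy1 were at 0 throughout. Of 8 T and NK cell markers the sum was 5.70 to 6.74 CPM alone and 6.51 to 8.17 CPM in coculture (0 of 1 tested was called), with Cd3e, Cd8a, Ncr1 and Nkg7 at 0. Genes with 0 counts in lone cells and at least 10 in coculture numbered 688. They took 0.282% to 0.314% of the cocultured counts and included 0 Schlafen genes. That share is no measure of all added RNA. It leaves out every gene with any lone count, such as Krt7 with 1 count alone and 2694 in coculture. No member could be among the 688 genes, because each member had counts in lone cells. TTJ cells alone were not analysed here. How far RNA of other cells entered the Schlafen results or the values of the gene lists was not tested. In bulk libraries, fewer cells of a type and less RNA per cell cannot be told apart.

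Most expressed Schlafen genes were higher in coculture and 1 was lower. Of the 6 members with enough counts to be tested, Slfn4, Slfn5, Slfn2 and Slfn9 rose, by 1.84-fold, 1.35-fold, 1.28-fold and 1.22-fold, Slfn3 fell 1.62-fold and Slfn8 did not pass the test. Across all 12972 tested genes, 21.7% were called higher, 15.2% lower and 36.9% either way (quasi-likelihood test of edgeR, Benjamini-Hochberg adjusted p under 0.05). In lone cells all 6 lay above 10 CPM, and among the 8732 genes at or above that level 16.5% were called higher and 21.1% lower. The median log2 fold change was 0.32 over the 6 members and 0 over all tested genes. Slfn1 had too few counts for the test. The members were picked with earlier results of these data known, so these counts describe the family and are not a test of it.

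**Figure D1:**
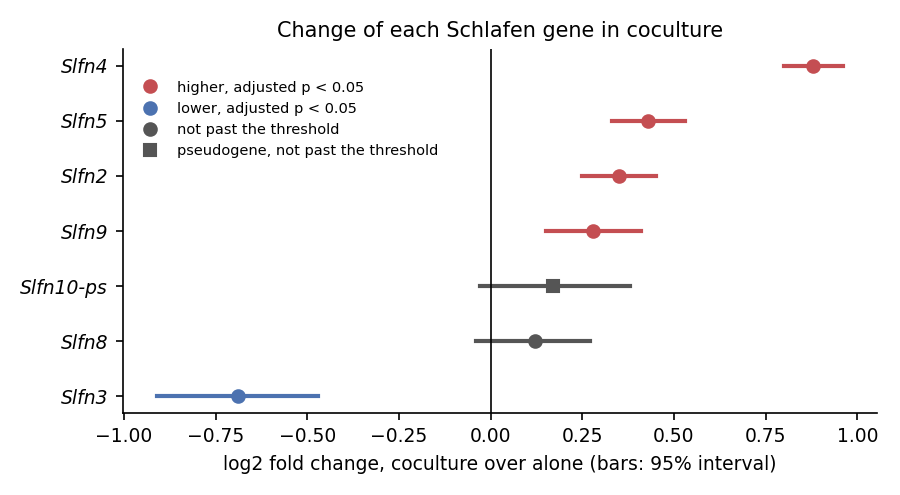
Log2 fold change of each tested Schlafen gene, coculture over alone (edgeR, 3 libraries a group), with bars for the 95% interval. Slfn4 lies farthest to the right at 0.88, the intervals of Slfn8 and the pseudogene Slfn10-ps cross 0, and Slfn3 lies at -0.69.

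Slfn4, an interferon-responsive gene of myeloid cells, was the most abundant member and the one that rose most. It had 9570, 10633 and 11447 counts in lone libraries A, B and C, and 17061, 17883 and 21570 counts in cocultured libraries A, B and C. Scaled for depth, its level was 658, 638 and 659.7 CPM alone and 1195, 1141 and 1268 CPM in coculture. Every cocultured library stood above every lone library, and the lone libraries lay within a few percent of each other. The mean went from 652 ± 12.4 to 1201 ± 63.4 CPM (SD, n = 3 each), a log2 fold change of 0.88 with a standard error of 0.039 and a 95% interval of 0.80 to 0.96 (edgeR adjusted p = 1.21e-15).

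The rise of Slfn4 took place in a gene that was already among the strongest of the cell. On the length-corrected FPKM scale it ranked 234th of 22046 protein-coding genes in lone cells and 107th in coculture. Of the 184 tested genes with at least its lone CPM, 0 others had as large a log2 increase. The next in order were Spp1, the osteopontin gene, at 0.84 and Vim, the vimentin gene, at 0.59. These neighbours in the ordering were named after their values were seen.

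Slfn3, the closest relative of Slfn4, went the other way. It had 276, 317 and 343 counts in lone libraries A, B and C and 180, 185 and 194 in cocultured libraries A, B and C. Its level was 19.0, 19.0 and 19.8 CPM alone and 12.6, 11.8 and 11.4 CPM in coculture, so that every cocultured library lay below every lone library. The mean fell from 19.3 ± 0.446 to 11.9 ± 0.612 CPM (SD, n = 3 each), a log2 fold change of -0.69 with a standard error of 0.106 and a 95% interval of -0.91 to -0.47 (edgeR adjusted p = 8.69e-06). Of 7470 tested genes with at least its lone CPM, 31 others fell as far.

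The opposite movement of Slfn4 and Slfn3 can also be read inside each library. The Slfn3 FPKM was 0.0335 to 0.0348 of the Slfn4 FPKM in lone cells and 0.0105 to 0.0123 of it in coculture, a change in the Slfn4 to Slfn3 ratio of 1.57 on the log2 scale. Near-identical genes can trade reads, so the values of this pair carry that uncertainty. The longest run of bases common to their transcripts was 95, shorter than the 150-base reads. Of the 3809 windows of 150 bases along the Slfn4 transcript, 0 occurred in a transcript of another gene, and of the 1667 along Slfn3, 43 (2.58%) occurred in the pseudogene Gm11427. Gm11427 itself measured 44.5 ± 1.97 CPM in lone and 44.4 ± 1.47 CPM in cocultured cells (log2 fold change -0.01, edgeR adjusted p = 0.959). The Slfn3 entry also spans further transcripts, which is why its length in the table, 3411 bases, exceeds the 1816 bases of the transcript compared here.

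Slfn2, a short member that binds tRNA and guards it from cleavage and that keeps T cells and monocytes quiescent, was the second most abundant. Its counts were 2076, 2506 and 2420 in lone libraries A, B and C and 2718, 2881 and 3025 in cocultured libraries A, B and C. That corresponds to 143, 150.3 and 139.5 CPM alone and 190.3, 184 and 178 CPM in coculture, with no overlap between the groups. The mean rose from 144 ± 5.53 to 184 ± 6.28 CPM (SD, n = 3 each), a log2 fold change of 0.35 with a standard error of 0.047 and a 95% interval of 0.25 to 0.45 (edgeR adjusted p = 1.16e-06). Gm20234, annotated antisense to Slfn2, had 7 counts over the lone libraries and 42 over the cocultured ones, far fewer than the 7002 and 8624 of Slfn2.

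Slfn1, the other short member and the gene first described in thymocytes, was close to absent. It had 0, 3 and 0 counts in lone libraries A, B and C and 8, 2 and 4 counts in cocultured libraries A, B and C. Pooled, 3 counts stood against 14, a depth-scaled ratio of 4.83 (exact 95% interval 1.35 to 26.2, for counting error alone). The groups overlapped, since lone library B had more counts than cocultured library B, and in a fit with no filter on low counts Slfn1 was not called (log2 fold change 2.16, edgeR adjusted p = 0.209).

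Among the long members, Slfn5 showed the clearest rise. Slfn5 is an interferon-inducible nuclear protein that has been linked to transcriptional repression. It had 1277, 1457 and 1431 counts in lone libraries A, B and C and 1647, 1772 and 2021 in cocultured libraries A, B and C. Its levels of 87.8, 87.4 and 82.5 CPM alone and 115, 113 and 119 CPM in coculture did not overlap. The mean rose from 85.9 ± 2.97 to 116 ± 2.86 CPM (SD, n = 3 each), a log2 fold change of 0.43 with a standard error of 0.050 and a 95% interval of 0.33 to 0.53 (edgeR adjusted p = 1.02e-07). Its antisense transcript Slfn5os shares 338 of the 5830 windows of 150 bases along Slfn5 (5.80%) and had 0 counts alone and 2 in coculture.

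Slfn9 and Slfn8 are long members with near-identical coding sequences, and they had the smallest changes. Lone libraries A, B and C held 909, 993 and 1104 counts of Slfn9 and cocultured libraries A, B and C held 1179, 1113 and 1235, or 62.5, 59.5 and 63.6 CPM against 82.6, 71.0 and 72.6 CPM. All 3 cocultured libraries were above the lone ones, with cocultured library A the highest. The mean rose from 61.9 ± 2.11 to 75.4 ± 6.26 CPM (SD, n = 3 each), a log2 fold change of 0.28 with a standard error of 0.063 and a 95% interval of 0.15 to 0.41 (edgeR adjusted p = 0.000744).

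For Slfn8 the lone libraries held 516, 528 and 576 counts and the cocultured ones 486, 569 and 651, or 35.5, 31.7 and 33.2 CPM against 34.04, 36.3 and 38.3 CPM. Here the groups overlapped, because cocultured library A was below lone library A. The mean was 33.4 ± 1.93 CPM without TTJ cells and 36.2 ± 2.11 CPM with them, and the log2 fold change of 0.12 had a 95% interval of -0.04 to 0.27 (edgeR adjusted p = 0.244). In fold terms that interval ran from 0.973 to 1.21. The transcripts of Slfn8 and Slfn9 share a run of 139 bases. Of the 150-base windows, 0 of 3862 along Slfn8 and 87 of 5620 (1.55%) along Slfn9 occurred in a transcript of another gene, in the latter case the pseudogene Slfn10-ps.

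The remaining entries with a Schlafen name added little. Slfn10-ps, a transcribed pseudogene inside the cluster, held 278, 367 and 423 counts in the lone libraries and 387, 358 and 413 in the cocultured ones, and its groups overlapped (log2 fold change 0.17, 95% interval -0.03 to 0.38, edgeR adjusted p = 0.181). Slfn14, a ribosome-associated nuclease gene best known from platelets and red cell precursors, had 2 counts over the lone libraries and 1 over the cocultured ones. Slfnl1, a distant relative on chromosome 4, had 1 count alone and 4 in coculture. For both, no change was detectable at this depth.

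**Figure D2:**
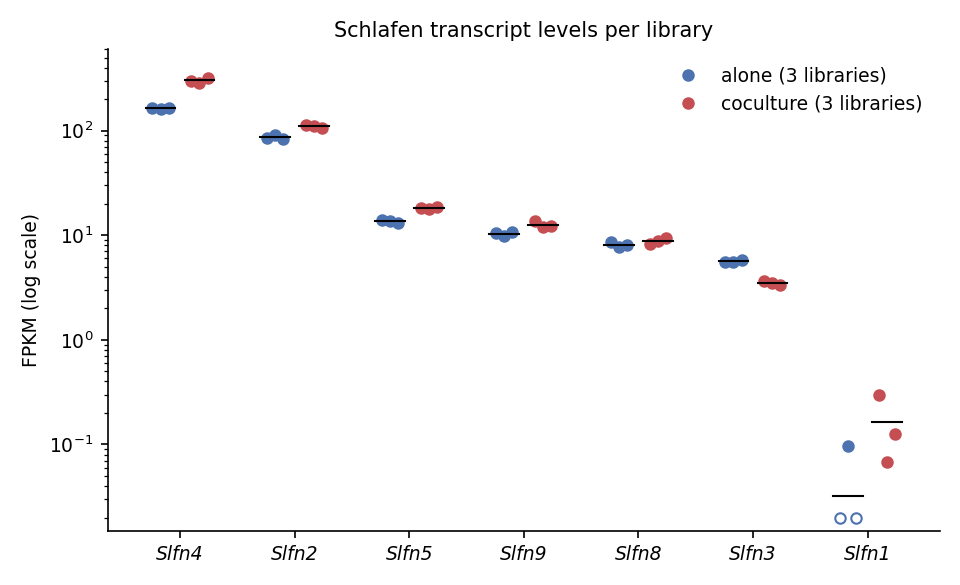
FPKM of each member in each library on a log axis, with lone libraries in blue, cocultured libraries in red, lines at the group means and open circles at the lower edge for values of 0. Slfn4 and Slfn2 stand above 80 FPKM in every library and Slfn1 below 0.3, and the red points of Slfn3 are the ones below their blue points without overlap.

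In CPM, 4 of the 6 tested members had every cocultured library above every lone library, against 26.1% of all tested genes. A single member had every cocultured library below, against 21.0%. For Slfn3 the coefficient of variation of CPM in lone cells was 2.32%, and counting alone would give 5.66%. For Slfn4 in coculture it was 5.28%, where counting alone would give 0.729%.

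Ordered by the deposited FPKM, which divides by the gene length of the count table, the family kept a single order in both groups. From the top it read Slfn4, Slfn2, Slfn5, Slfn9, Slfn8, Slfn3 and Slfn1, and the libraries of neighbouring genes did not overlap within either group. For Slfn3 that length is 3411 bases, against 1816 in the transcript compared above. The place of Slfn3 next to Slfn8 and Slfn9 can therefore depend on the length used, and other lengths were not tried. Slfn4 was at 165.8, 160.2 and 166 FPKM in lone libraries A, B and C and at 301, 288 and 319 FPKM in coculture. Slfn2 came next at 83.6 to 90.0 FPKM alone and 107 to 114 FPKM in coculture. A wide gap followed, with Slfn5 at 13.01 to 13.9 FPKM alone and 17.9 to 18.7 FPKM in coculture.

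Slfn9 (9.94 to 10.6 FPKM alone and 11.9 to 13.8 FPKM in coculture) stood above Slfn8 (7.71 to 8.66 FPKM and 8.30 to 9.33 FPKM). Slfn3 was at 5.55 to 5.78 FPKM alone and 3.34 to 3.69 FPKM in coculture. Slfn1 did not exceed 0.300 FPKM in any library. RAW264.7 cells of both groups therefore carried 1 short and 1 intermediate gene at high level, and the other gene of each of those classes at a small part of that.

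The summed FPKM of the 7 genes rose from 288 ± 1.60 to 456 ± 14.6 (SD, n = 3 each), a ratio of 1.58, and Slfn4 made up 82.4% of the increase. Without Slfn4 the sum went from 124 ± 2.93 to 154 ± 4.15 FPKM, a ratio of 1.24. In counts, the family took 0.0984% to 0.1% of each lone library and 0.156% to 0.169% of each cocultured one.

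**Figure D3:**
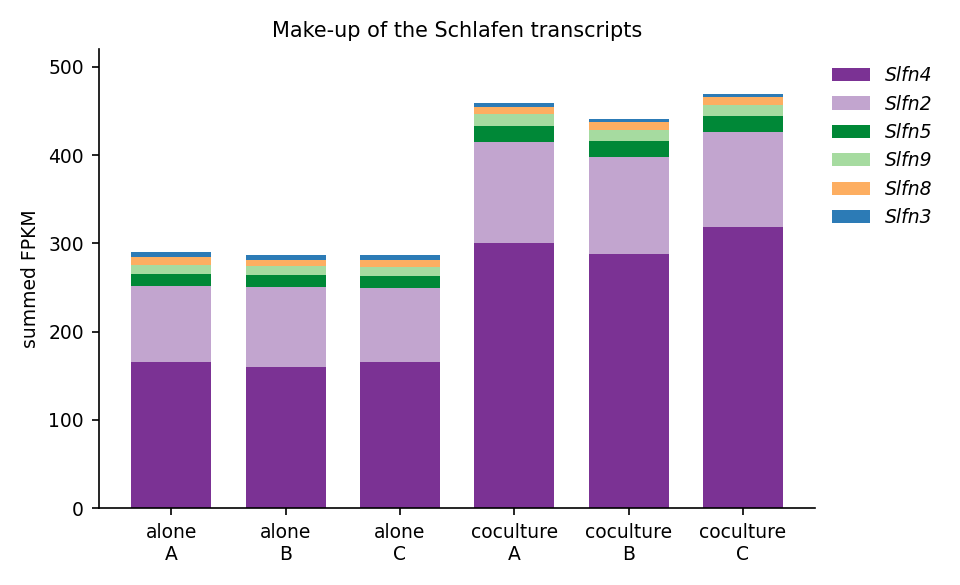
Summed FPKM of the Schlafen genes in each of the 6 libraries, stacked by gene (Slfn1 is too low to draw). The lone columns stand at 287 to 290 and the cocultured columns at 441 to 469, and most of the added height is Slfn4.

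The make-up of the family shifted towards Slfn4. Its share of the summed FPKM was 55.8% to 57.8% in lone libraries and 65.3% to 68.0% in cocultured ones. The share of Slfn2 went from between 29.1% and 31.3% to between 22.7% and 25.1%, although its own level rose. Slfn3 went from between 1.92% and 2.01% to between 0.711% and 0.803%.

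Ratios between members were compared within libraries for the 15 pairs of the 6 tested genes. In 10 pairs the groups did not overlap, namely every pair with Slfn4 or Slfn3 and the pair of Slfn5 with Slfn8. The Slfn4 to Slfn8 ratio was 19.1 to 20.8 alone and 32.4 to 36.2 in coculture. Slfn2 was 0.504 to 0.561 of Slfn4 alone and 0.334 to 0.384 of it in coculture. In the 5 pairs Slfn2 with Slfn5, Slfn8 or Slfn9, Slfn5 with Slfn9 and Slfn8 with Slfn9 the groups overlapped. With 3 libraries against 3 the exact two-sided permutation test cannot go below p = 0.1, and the smallest value adjusted over the 15 pairs was 0.15, so no pair could pass the threshold.

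**Figure D4:**
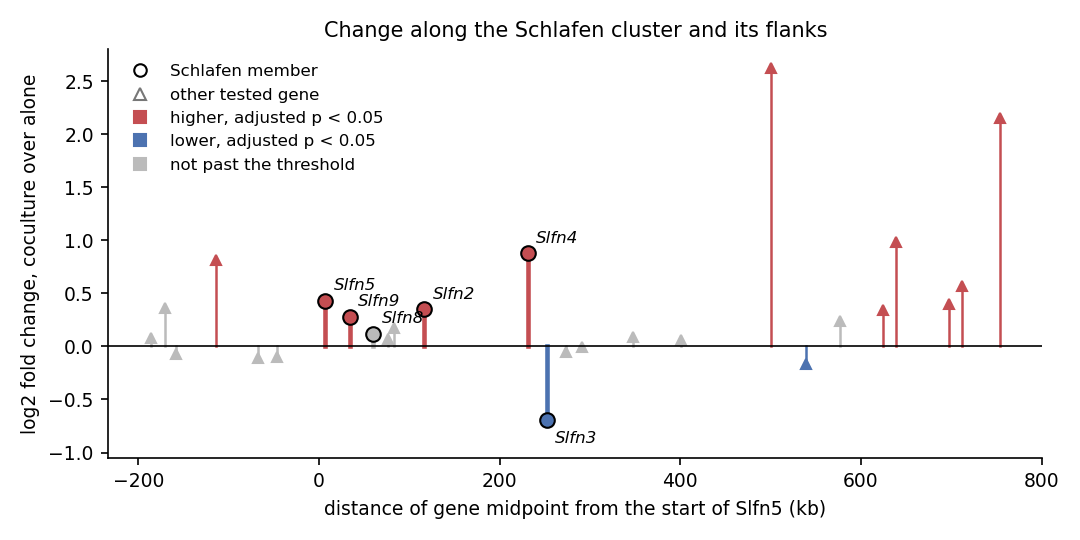
Log2 fold change of the tested genes along the Schlafen cluster and 500 kb on each side, against the distance of each gene's midpoint from the start of Slfn5. Circles are members and triangles other genes, and the neighbouring stems of Slfn4 (0.88) and Slfn3 (-0.69) point in opposite directions.

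Along the chromosome, the tested genes inside the cluster and next to it that are no members were not called. Within the cluster, 15 other genes were annotated, of which 2 had enough counts to be tested (Gm11425 and Slfn10-ps) and 0 were called. Their log2 fold changes were 0.07 for Gm11425 (edgeR adjusted p = 0.816) and 0.17 for Slfn10-ps. The tested genes next to the cluster were Nle1, a ribosome assembly gene, at a log2 fold change of -0.10 (edgeR adjusted p = 0.227), and the transcript AI662270 at -0.05 (edgeR adjusted p = 0.676).

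Farther out, within 500 kb, 1 of 6 tested genes before the cluster was called higher, the ubiquitin ligase gene Rffl (log2 fold change 0.81, edgeR adjusted p = 1.81e-06). After it, 6 of 12 were called higher and 1 lower, against 21.7% and 15.2% of all tested genes. The 6 included the chemokine genes Ccl9, Ccl6, Ccl3 and Ccl4, at log2 fold changes of 0.34, 0.98, 0.40 and 0.57, together with Wfdc17 and the sparsely counted Mmp28 (14 counts over the lone libraries and 86 over the cocultured ones), and the lower gene was Taf15 at -0.17. Genes farther from the cluster than the next on each side are named because they were called.

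The interferon pathway was followed with a list of 36 genes, from receptors and kinases to target genes. Of 34 with enough counts, 23 rose and 2 fell, against 21.7% and 15.2% of all tested genes, and their median log2 fold change was 0.58. The largest changes on the list were in target genes. They were the antiviral GTPase gene Mx1, the nucleic acid sensor Zbp1, Oasl2 and the guanylate-binding protein gene Gbp3. Their log2 fold changes were 2.45, 2.30, 2.01 and 1.83. Mx1 and Gbp3 started low, at means of 2.31 and 6.04 CPM in lone cells. The target genes Oas2 and Oas3, among the 9 not called, were at 0.06 and 0 (edgeR adjusted p = 0.324 and 0.992). Of the 2 interferon genes on the list, Ifna4 was at 0 in all 6 libraries and Ifnb1 had 3 counts over the lone libraries and 0 over the cocultured ones. Of the receptor genes, Ifnar1 measured 89.3 ± 6.08 CPM in lone cells and 82.8 ± 1.87 CPM in cocultured ones (edgeR adjusted p = 0.123), and Ifnar2 fell from 56.4 ± 0.880 to 45.5 ± 2.27 CPM (edgeR adjusted p = 0.000353).

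Of the factors that act on the response element, some changed and others were not called. Stat2 rose from 51.0 ± 1.84 to 134 ± 1.74 CPM and Irf7 from 288 ± 14.3 to 591 ± 5.57 CPM, with log2 fold changes of 1.39 and 1.04, and Irf9 measured 72.7 ± 0.411 CPM in lone and 73.7 ± 3.37 CPM in cocultured cells (edgeR adjusted p = 0.826). Irf3 and Irf5 were at log2 fold changes of -0.16 and -0.10 (edgeR adjusted p = 0.0830 and 0.117). Tyk2, a receptor kinase gene, was the other gene that fell, at a log2 fold change of -0.15 (edgeR adjusted p = 0.0360). That call was lost without lone library A, lone library C, cocultured library A or cocultured library B, at edgeR adjusted p of 0.0764, 0.0868, 0.0682 and 0.128.

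**Figure D5:**
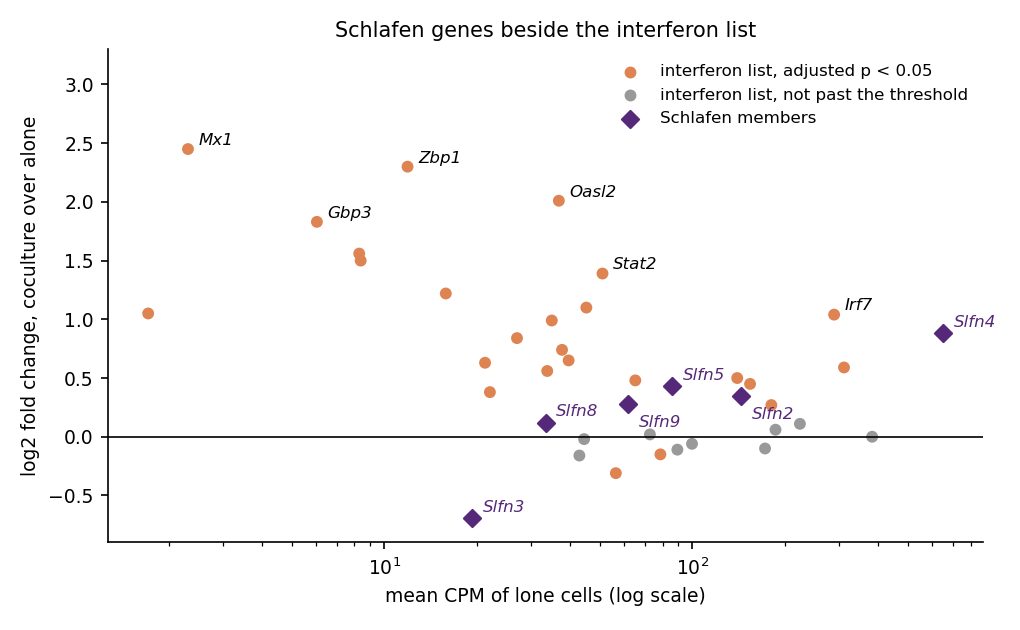
Log2 fold change, coculture over alone, against mean CPM in lone cells (log axis) for 34 interferon pathway genes (circles) and the 6 tested Schlafen members (diamonds). Slfn4 lies at the far right at 652 CPM, while Mx1, Zbp1, Oasl2 and Gbp3 have larger changes from 2.31 to 36.8 CPM.

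Beside that list, the largest rise and the only fall among the tested members were in genes without the response element letters upstream. Slfn5, Slfn9 and Slfn8 had log2 fold changes of 0.43, 0.28 and 0.12. Slfn4, Slfn2 and Slfn3, which hold the ACTTCCTGG string instead, were at 0.88, 0.35 and -0.69. With 6 genes this is a description of the windows and the values side by side.

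Schlafen proteins act on tRNA and translation, and 15 genes of RNA cleavage and the stress kinases that sense it were set beside them. Of 12 tested, 4 rose and 2 fell, against 21.7% and 15.2% of all tested genes, with a median log2 fold change of 0. Among those that rose were Ang, the tRNA-cutting angiogenin, from 1.23 ± 0.268 to 2.65 ± 0.322 CPM, and the interferon-regulated genes Samd9l and Eif2ak2, at log2 fold changes of 0.49 and 0.38. The inhibitor of angiogenin, Rnh1, measured 263 ± 18.6 CPM in lone and 256 ± 12.2 CPM in cocultured cells (edgeR adjusted p = 0.588).

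The 2 that fell were Gcn1l1, a ribosome-associated activator of the kinase encoded by Eif2ak4, at a log2 fold change of -0.19, and Eif2ak4 itself at -0.18 (edgeR adjusted p = 0.0383). The Eif2ak4 call was lost without lone library A, lone library C, cocultured library B or cocultured library C, at edgeR adjusted p of 0.0868, 0.129, 0.171 and 0.108.

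Because the family is known for restraining growth, 19 cell cycle genes were also counted. All 19 were tested, 5 rose and 4 fell, not far from the 21.7% and 15.2% of all tested genes, and the median log2 fold change was -0.03. The G1 cyclin gene Ccnd1, which early work placed under repression by Slfn1, rose from 497 ± 16.3 to 656 ± 9.09 CPM. Ccnd2, low in lone cells, rose from 2.93 ± 1.18 to 14.6 ± 1.40 CPM. Which cells carried the added Ccnd2 transcripts was not tested. Ccnd3 and the cell cycle inhibitor gene Cdkn1a also rose, at log2 fold changes of 0.31 and 0.28. Ccne1 was the remaining one at 0.15 (edgeR adjusted p = 0.0350), a call that was lost when any single library was left out, at edgeR adjusted p of 0.0567 to 0.103.

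The 4 cell cycle genes that fell were Top2a, Mcm5, Cdk4 and Mki67, at log2 fold changes of -0.26, -0.20, -0.19 and -0.15. Mki67, a marker of cycling cells, fell from 853 ± 52.8 to 767 ± 15.5 CPM.

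For the 3 most abundant members, the genes whose 6 library values lay closest were sought among 8618 protein-coding genes of at least 10 CPM, by root mean square distance in log2 CPM centred on the lone libraries. The closest to Slfn4 were Hacd4, Slc7a8 and Cdk2ap2, at distances of 0.0367, 0.0401 and 0.0555. Hacd4, the nearest, went from 11.6 ± 0.355 to 21.2 ± 1.64 CPM. The closest to Slfn2 were Lfng, Lrp8 and Colec12, at 0.0254, 0.0261 and 0.0282, and the closest to Slfn5 were Pstpip1, Myl12a and Lpcat4, at 0.0138, 0.0201 and 0.0234. No Schlafen gene could appear on these lists, since members were left out of the search.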

How the data were processed

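Raw read counts for 54532 genes, with names, biotypes and coordinates, were taken as the authors deposited them. FPKM values of the same 6 libraries come from a further deposited table, and matched the counts divided by gene length and depth up to a factor of 0.9955 to 1.004 in each library. Tools listed without a role, per the submitters' processing notes, are featureCounts 1.5.0-p3, HISAT2 2.0.5, edgeR 3.22.5 and DESeq2 1.20.0, with the build mm10. The handling of strand and of reads with several matches was not given in the sources used here. Overlapping and antisense genes therefore cannot be told apart.

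The members and the gene lists were chosen with earlier results of these data known. Counts were tested with the quasi-likelihood test of edgeR 4.0.16 (R 4.3.3) over all 12972 genes kept by filterByExpr, with TMM scaling, a single group term and Benjamini-Hochberg adjustment at 0.05. The procedure was tested on simulated data. The common biological coefficient of variation was 5.29%. CPM values use TMM-scaled library sizes and levels between genes use the deposited FPKM. Alternatives were DESeq2 1.42.0, limma 3.58.1 (voom, and trend on log2 FPKM plus 1 or 0.1), other scalings and filters, the replicate letter as a block and each library left out.

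Named genes were all Schlafen entries, up to 4 genes of each list with the largest called change and at least 1 CPM, the 3 genes most like each of the 3 most abundant members, and the tested neighbours of the cluster. Other genes are named for their role or because a count of 5 or fewer includes them, and were chosen after their values were seen. Values of 1 listed gene are not reported here. Promoter windows (250 bases before to 50 after a start) are from RefSeq GRCm38.p6. Transcripts and coding sequences are from GENCODE M21, 1 transcript a gene, aligned globally, and their identity stands in for a comparison of proteins that was planned. Groups of 3 were too small for an outlier test of single libraries.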

Additional observations from a re-analysis of the deposited data

How the results depend on the processing

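Over 17 alternatives, 4 Schlafen members were higher and 1 lower in each. Log2 fold changes ran from 0.85 to 0.91 for Slfn4, 0.32 to 0.38 for Slfn2, 0.40 to 0.45 for Slfn5, 0.21 to 0.32 for Slfn9 and -0.73 to -0.56 for Slfn3, each past the threshold throughout (highest adjusted p 0.0199, for Slfn9), and from 0.08 to 0.16 for Slfn8, never past it. The number of genes called higher over the whole table was 2819 in the analysis as reported, 1707 with limma-trend on log2(FPKM + 1) at a mean FPKM of at least 1, which tests fewer genes, and 2586 to 2837 with 1 library left out. The interferon list had 1 gene lower in place of 2 with no filter, DESeq2 or limma-trend on FPKM (Tyk2 lost), and 1 to 2 with 1 library left out. The RNA cleavage list likewise had 1 lower with DESeq2 or limma-trend on FPKM (Eif2ak4 lost), and 1 to 2 with 1 library left out. The cause was not tested. With counts in place of FPKM the Slfn4 share was 65.4% alone and 73.9% in coculture, since counts are not corrected for length.

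With the replicate letter as a replicate block, 2815 genes were higher and 1951 lower, and no Schlafen call changed. Deviations of libraries with the same letter correlated at 0.00144, 0.0204 and 0.0347 across genes, so the letters were not treated as pairs. Libraries B and C of each group correlated best with their own letter and libraries A did not.

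Depth limits Slfn1, Slfn14 and Slfnl1, with at most 14 counts a group.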
